A study of Canis lupus familiaris with 124 samples.

Results

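Of the 8 canine cell lines in this study, 2 had been cultured to a passage of at least 350, and they are described here against the lines of lower passage. Adcarc0846 (passages 447 and 448) was derived from the prostate adenocarcinoma (PAC) of a 6 year old male German Rough-haired Pointer. TCC0840 (passages 350 and 352) was derived from the transitional cell carcinoma (TCC) of a 10 year old neutered male Pitbull Terrier. The study's full name for the line places its origin in the prostate. Together they gave 4 of the 22 cell line libraries and of the 31 libraries of the series. The other 18 libraries came from 6 lines at passages 68 to 107, which are called lower passage lines. The lower PAC lines were Adcarc1508, from an 11 year old neutered male of mixed breed, and 3 lines from 1 neutered 6 year old male Dobermann, namely Adcarc1511.1 from the primary tumor and Metadcarc1511.2 and Metadcarc1511.3 from metastases. The lower TCC lines were TCC1506, from the bladder tumor of a 10 year old female Labrador Retriever, and TCC1509, from the prostate tumor of a 9 year old neutered male Bolonka Zwetna. The organ of origin thus differed among the TCC lines. Each lower line had 3 libraries, so that there were 12 lower PAC and 6 lower TCC libraries.

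All lines were kept without treatment in the same medium (Medium 199 with fetal bovine serum) and were harvested from culture flasks near confluence. The libraries of a line mostly came from different passages. TCC0840 was started from cells left over from a fine needle aspirate, its diagnosis rests on cytology, and it has no original tissue. Adcarc0846 has the original tissue P2. Each very high passage line is a single line from a single dog, and the same line was not sampled at a low passage. Passage, dog and line can therefore not be told apart within a tumor class. A gene that differed in the same direction in both classes was not tied to 1 dog, but it still rested on 2 dogs.

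Serial passage is repeated dilution and regrowth of a culture, and the cells that divide and attach best in plastic flasks come to dominate it. Carcinoma lines vary in extracellular matrix, adhesion and growth factor genes, also between patients at any passage. Many of them build few primary cilia, the single sensory antenna that a resting cell forms on its mother centriole.

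The 4 very high passage libraries had totals of 15848443 to 19736664 expected counts, within the 15355798 to 19935282 of all lines. The epithelial markers EPCAM, CLDN7, PKP3, LAD1 and JUP summed to 1740 to 1990 CPM (counts scaled to library size with TMM factors) in Adcarc0846 and to 1760 to 2240 CPM in TCC0840. The sums were 1250 to 2850 CPM in the lower PAC libraries and 463 to 3160 CPM in the lower TCC libraries, so that both very high lines had the epithelial markers of a carcinoma line. Of 15 leukocyte markers, 10 were at 0 in both libraries of Adcarc0846 and 9 in both of TCC0840. Their sum was nonetheless higher in Adcarc0846 (14.8 to 18 CPM) than in any lower PAC library (0.554 to 11.2 CPM), and it overlapped in TCC (6.71 to 24.5 against 0.999 to 10.6 CPM). ITGB2 made up most of the sum in the very high lines and is described with the genes that agreed. The sample numbers in the titles appear to form 2 series. In that reading, both very high lines and replicates 1 and 2 of TCC1506 are in the one and all other lower libraries are in the other, so that series and passage largely go together, and in PAC they cannot be told apart.

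Whether high passage had reduced the range of genes in use was asked first. In Adcarc0846, 11464 genes reached 1 CPM, as the mean of its libraries, and in TCC0840 11633.5 did. In the 4 lower passage dogs the numbers were 12066.3 (TCC1506), 11786.7 (Adcarc1508), 11701.8 (the 3 lines of the Dobermann) and 11361.7 (TCC1509). Over both classes together, the very high lines lay inside the range of the lower ones. Within PAC, both libraries of Adcarc0846 (11526 and 11402) were below all lower PAC libraries, of which the lowest had 11555. Within TCC, TCC0840 lay between the lower lines. The test that follows did not take tumor class into account. The mean difference of -180.4 genes was smaller than the SD of 290.3 among the lower dogs (two-sided exact permutation test over 6 dogs, p = 0.467, where 0.0667 is the smallest p that 15 splits allow).

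Neither very high line was the nearest line to the other. Every lower PAC line was nearer to Adcarc0846 than TCC0840 was, and Adcarc1508 was the nearest (140.7). By the Euclidean distance of log2 CPM, Adcarc0846 was 148.6 from TCC0840 and on average 145.4 from the lower PAC lines. TCC0840 was nearer to Adcarc0846 than to the lower TCC lines, from which it was 180.5 on average, but its nearest line was the lower passage PAC line Adcarc1508 (133.4). The distance between both very high lines was 0.912 of their mean distance to the lower lines of their class, with an SD of 0.02 over the lower lines left out in turn. TCC1506 and TCC1509 were 189.4 from each other. The last 2 libraries of a line were 45.3 apart in Adcarc0846 and 58.3 in TCC0840, within the 40.5 to 80.8 of the lower lines, of which Adcarc1511.1 had the highest value.

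**Figure D1:**
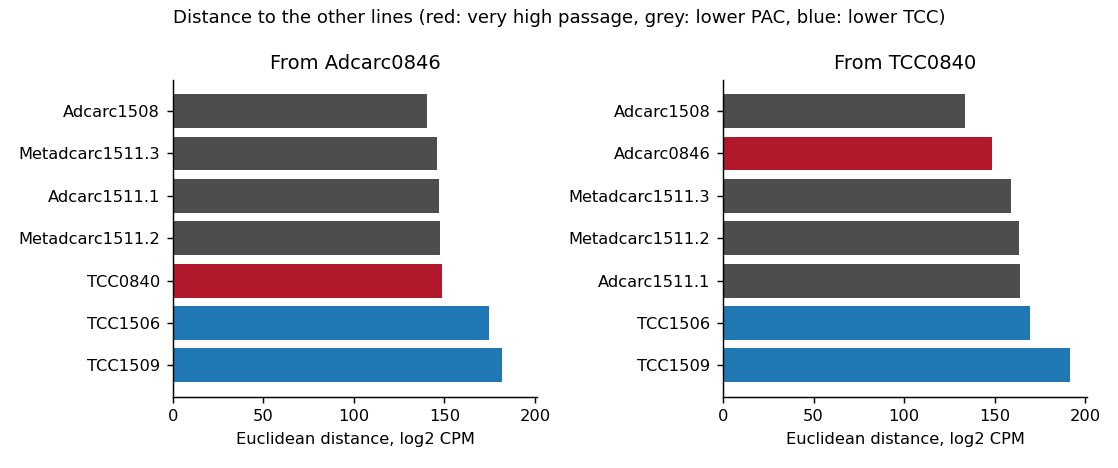
Euclidean distance of log2 CPM (horizontal axis) from Adcarc0846 (left) and TCC0840 (right) to each of the other 7 lines, with 1 bar per line. TCC0840 is 133.4 from Adcarc1508 and 148.6 from Adcarc0846, and both lower TCC lines are the farthest lines from either very high line.

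With the dog as the unit, edgeR and DESeq2 differed in their calls. edgeR's quasi-likelihood test over 14721 genes called 0 genes (0%) in PAC, in TCC, over both classes and for the difference between the classes, with the threshold at 2-fold and 0.01 after Benjamini-Hochberg adjustment. The smallest adjusted p were 0.759 in PAC, 0.586 in TCC and 0.273 over both classes. Of the 14721 genes, 642 had an unadjusted p under 0.05 in PAC, 1152 in TCC, 1062 over both classes and 772 for the difference. A share of about 0.05 of all genes falls there when nothing differs, so that these counts are no result by themselves. Under DESeq2's Wald test on the same 14721 genes, 229 passed in PAC (56 higher, 173 lower) and 385 in TCC (129 higher, 256 lower). Over both classes 291 passed (87 higher, 204 lower), and 219 passed for the difference. A self-test with 6 dogs gave all genes the same spread and no class difference, and changed only genes above a minimum level. Of those changed 4-fold, at a biological coefficient of variation of 0.3, 26.5% were recovered in PAC and 92% over both classes. At 0.7, 0% were. The common dispersion in the fit by class was 0.465, close to the square of 0.7. Larger changes, and changes in genes of low counts, were not simulated.

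Genes were therefore also counted without a test. A gene was taken as separated when every library of the very high line lay at least 2-fold above, or at least 2-fold below, every library of the lower lines of its class, with values under 3 counts (0.138 to 0.21 CPM) set to 3 counts. The distance between the nearest libraries of both groups is called the gap. In PAC, 281 genes were separated and higher in Adcarc0846 (1.91%) and 317 were lower (2.15%). In TCC, 675 genes were higher in TCC0840 (4.59%) and 552 were lower (3.75%). PAC had 12 lower libraries to clear and TCC had 6, so that the shares of both classes are not comparable.

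In both classes, 45 genes were separated and higher (0.306%) and 65 were separated and lower (0.442%), while 41 were separated in opposite directions (0.279%). The log2 fold changes of both classes had a Pearson correlation of 0.168 across all 14721 genes (a description, since genes are not independent). The lower lines of both classes are different lines, but both very high lines share the sample number series. Of the 45 higher genes, 28 were also at least 2-fold above the lower libraries of the other class, and 16 stayed under 1 CPM in every lower library. Of the 65 lower genes, 37 were also below the lower libraries of the other class, and 32 stayed under 1 CPM in every very high library. These counts depend on the lines and libraries at hand, and with fewer libraries the rule is easier to meet. They were 102 higher, 118 lower and 86 opposite without replicate 1 of each line, which also left only 1 library of each very high line. They were 77, 93 and 60 without Adcarc1508, 85, 113 and 98 without TCC1506, and 54, 114 and 103 without TCC1509.

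**Figure D2:**
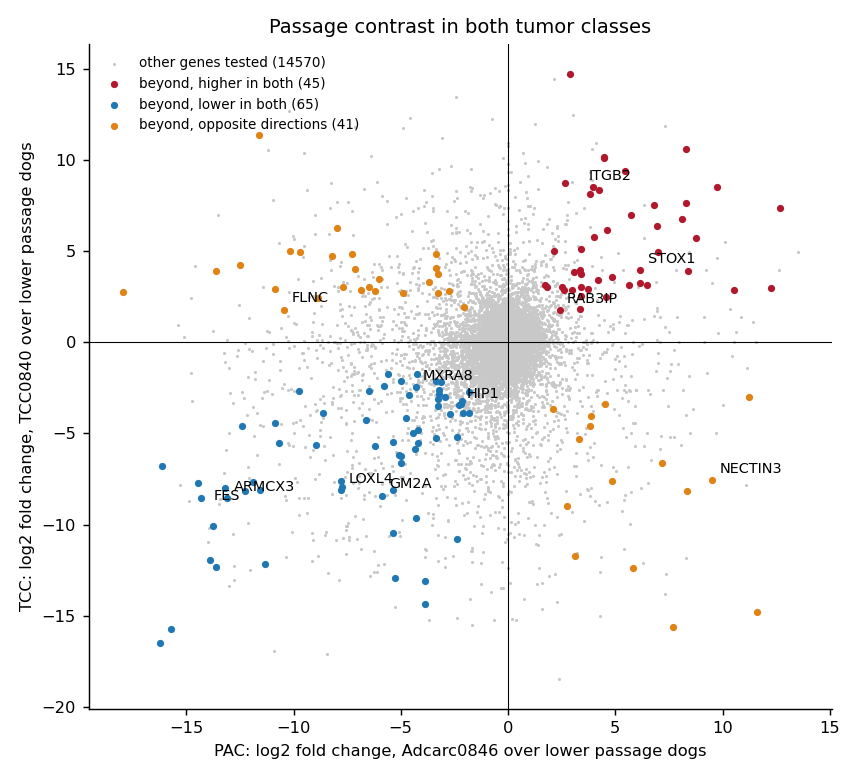
Log2 fold change of Adcarc0846 over the lower PAC dogs (horizontal axis) and of TCC0840 over the lower TCC dogs (vertical axis) for 14721 genes, each point a gene. Red points are the 45 genes separated and higher in both classes, blue points the 65 separated and lower in both, and orange points the 41 separated in opposite directions, with symbols where known.

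The counts are listed by Ensembl identifier, and 962 of the genes tested could be paired with a symbol. These come mostly from the study's ranking of genes by chemoresistance in these same lines and are no random sample of all genes. Of the 962, 13 were separated and higher (1.35%) and 26 lower (2.70%) in PAC, and 39 were higher (4.05%) and 64 lower (6.65%) in TCC. In both classes 3 were higher (0.312%: STOX1, RAB3IP and ITGB2) and 6 were lower (0.624%: ARMCX3, LOXL4, GM2A, FES, HIP1 and MXRA8). Most of these shares were near those of all genes given above, and the share lower in TCC was the farthest from it. NECTIN3 and FLNC went in opposite directions. The other 101 of the 110 genes that agreed have no symbol here. The genes that agreed were chosen by their values in these libraries. The fold changes, ranges and p-values given for them below are therefore descriptions only.

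STOX1, a winged helix transcription factor, had 29.7 and 31.3 CPM in Adcarc0846 and 2.38 and 1.88 CPM in TCC0840. In the lower PAC libraries its lowest, median and highest level were 0, 0.453 and 1.17 CPM, and in the lower TCC libraries 0, 0.14 and 0.277 CPM. The groups did not overlap in either class, but the level in Adcarc0846 was far above that in TCC0840. The nearest libraries were 25.3-fold apart in PAC and 6.78-fold in TCC (edgeR over both classes, adjusted p = 0.519).

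RAB3IP encodes Rabin8, which activates the small GTPase RAB8 in membrane transport toward the plasma membrane and the primary cilium. Its level was 102 and 91.8 CPM in Adcarc0846 and 59.5 and 87.1 CPM in TCC0840. The lower PAC libraries had 8.54, 17.0 and 24.9 CPM (lowest, median, highest) and the lower TCC libraries 17.6, 22.4 and 26.1 CPM. Lower lines of both classes thus shared a narrow range, and all 4 very high libraries were above it. The log2 fold change over both classes was 2.09 (standard error, SE, 0.30, adjusted p by edgeR = 0.446), with 1.753 to 2.430 when 1 dog or 1 replicate was left out, and DESeq2 gave an adjusted p of 1.37e-06.

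ITGB2, the beta2 integrin chain that leukocytes use for adhesion, had 13.9 and 17.3 CPM in Adcarc0846 and 6.46 and 24.3 CPM in TCC0840. In the lower PAC libraries it ranged from 0 to 6.87 CPM with a median of 0.314, and in the lower TCC libraries from 0 to 0.109 CPM with a median of 0.0543. The groups were 35.1-fold apart in TCC and only 2.03-fold in PAC, because Adcarc1511.1 reached 6.87 CPM. Among all symbols that agreed, ITGB2 was the one nearest to the threshold on the higher side, and TLL2 (gaps of 2.47 in PAC and 0.92 in TCC on the log2 scale) was the nearest outside it. The other defining leukocyte genes on the list, TYROBP, CSF1R, C1QB, C1QC and SPI1, were at or near 0 in all 4 very high libraries.

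ARMCX3 encodes an armadillo repeat protein of the mitochondrial outer membrane and had the widest gap of the 6 lower genes, by the smaller gap of both classes. Adcarc0846 had 0 counts in both libraries and TCC0840 had 0.0627 and 0.0522 CPM, which is 1 count each. The lower PAC libraries had 9.13, 17.6 and 46.8 CPM (lowest, median, highest), and the lower TCC libraries 16, 19.2 and 34.3 CPM. Every lower line expressed the gene and no very high library did at a level above the floor. The level in Adcarc0846 was at least 109-fold lower than the mean of the lower PAC dogs, against a floor of 3 counts per library, and the nearest libraries in TCC were 84.9-fold apart (edgeR adjusted p over both classes = 0.441, DESeq2 4.13e-12).

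LOXL4, a lysyl oxidase like enzyme that crosslinks collagen, had 0.143 and 0.106 CPM in Adcarc0846 and 0.188 and 0.0522 CPM in TCC0840, at most 3 counts in a library. Its levels in the lower PAC libraries were 5.79, 15.6 and 75.9 CPM and in the lower TCC libraries 4.82, 26.9 and 84.7 CPM (lowest, median, highest). The gap was 36.4-fold in PAC and 25.6-fold in TCC. The edgeR adjusted p over both classes was 0.273, the smallest of all genes tested, a value it shared with others. LOXL4 also varied within the lower lines: in 6 of 6 lower lines it was highest in the library of the lowest passage, and the later libraries differed from it by -2.21 on average on the log2 scale. ARMCX3 was also highest in the library of the lowest passage in 6 of 6 lower lines, by a smaller margin (-0.42). Those libraries are also replicate 1, so that their passage and their number cannot be told apart.

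GM2A, the activator protein for lysosomal breakdown of the ganglioside GM2, had 2.14 and 2.23 CPM in Adcarc0846 and 0.314 and 0.888 CPM in TCC0840. The lower PAC libraries had 29.7, 94.1 and 278 CPM and the lower TCC libraries 79.0, 225 and 315 CPM (lowest, median, highest). The groups were 13.4-fold apart in PAC and 89-fold in TCC, and a low level remained in each very high library. The log2 fold change over both classes was -6.94 (SE 1.01, adjusted p by edgeR = 0.446).

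FES, a cytoplasmic tyrosine kinase, had 0 counts in both libraries of Adcarc0846 and at most 1 count in those of TCC0840. In the lower PAC libraries it ranged from 3.22 to 17.4 CPM with a median of 7.39, and in the lower TCC libraries from 0.888 to 14.1 CPM with a median of 4.75. The level in Adcarc0846 was at least 46.5-fold lower than in the lower PAC dogs, and the gap in TCC was 4.72-fold, set by TCC1506 (1.15 ± 0.262 CPM, SD over 3 libraries).

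HIP1, an endocytic adaptor that binds clathrin, was lower but clearly expressed. Adcarc0846 had 30.8 and 26.5 CPM and TCC0840 21.4 and 18.3 CPM. The lower PAC libraries had 83.1, 141 and 287 CPM and the lower TCC libraries 88.5, 214 and 327 CPM (lowest, median, highest). The log2 fold change over both classes was -2.82 (SE 0.52, adjusted p by edgeR = 0.619), between -3.444 and -2.251 when 1 dog or 1 replicate was left out.

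MXRA8, a cell surface protein linked to matrix remodelling, was low in all TCC libraries. It had 0.238 and 0.106 CPM in Adcarc0846 and 0.251 and 0.0522 CPM in TCC0840, against 0.528 to 11.5 CPM in the lower PAC and 0.535 to 1.16 CPM in the lower TCC libraries. The gaps were 2.22-fold and 2.13-fold, the narrowest of the 6 lower genes, and DESeq2 gave no call (adjusted p = 0.0711). MCC was the symbol just outside the threshold on this side, with gaps of -2.54 in PAC and -0.98 in TCC on the log2 scale.

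**Figure D3:**
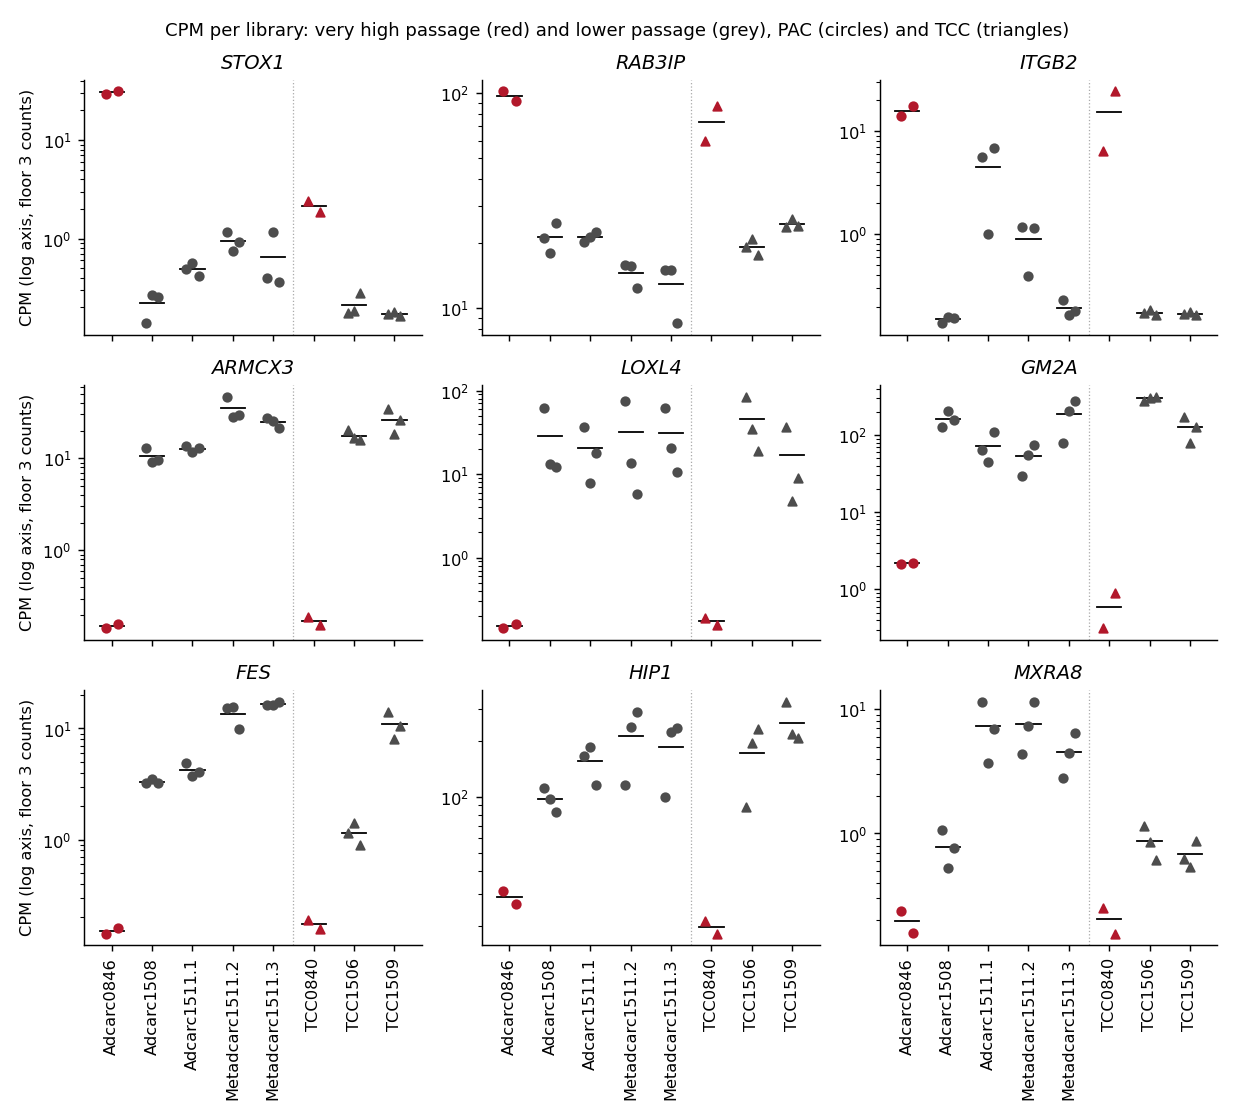
CPM per library on a log axis, with values under 3 counts set to 3 counts, for the 9 genes with a symbol that agreed in both classes. Each point is a library, black bars are line means of the plotted values, and red marks very high passage. STOX1, RAB3IP and ITGB2 lie above, and the other 6 genes below, all lower passage libraries of the same class.

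Among the genes without a symbol, ENSCAFG00000004375 had the widest gap on the higher side. It had 166 to 186 CPM in Adcarc0846 and 87.9 to 128 CPM in TCC0840, and at most 1.32 CPM in the lower PAC and 0.174 CPM in the lower TCC libraries. ENSCAFG00000001403 followed, with 158 to 286 CPM in Adcarc0846 and 26.6 to 38.9 CPM in TCC0840. On the lower side, ENSCAFG00000002663 had at most 0.618 CPM in Adcarc0846 and 1.57 CPM in TCC0840 but at least 47.6 CPM in every lower PAC and 170 CPM in every lower TCC library. ENSCAFG00000015434 had 0 counts in Adcarc0846 and at most 2 counts in TCC0840, against at least 6.74 CPM in the lower PAC and 9.93 CPM in the lower TCC libraries. The first pair was abundant in the very high lines and low in the lower libraries, and the second pair showed the opposite.

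The original tissue of Adcarc0846 allowed the agreeing genes to be set beside the tumor before culture, on a CPM scale shared by lines and tissues. Of the 65 lower genes, 57 (87.7%) were at least 2-fold higher in P2 than in the line, against 27.5% of all genes tested. Of the 45 higher genes, 25 (55.6%) were at least 2-fold lower in P2 than in the line, against 22.4% of all genes. Since the libraries of Adcarc0846 were used to choose these genes, these shares are descriptions only. P2 holds stromal, vascular and immune cells as well as carcinoma cells, and in such tissue fewer cells of a type cannot be told from less RNA per cell.

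In P2, ARMCX3 had 53.2 CPM, HIP1 116 CPM, GM2A 83.5 CPM and FES 115 CPM, all above both very high lines. LOXL4 had 1.44 CPM in P2, the lowest of the 9 tissues, whose median was 22.1 CPM. RAB3IP had 17.7 CPM in P2, and STOX1 had 1.52 CPM. Both were thus higher in Adcarc0846 than in its own tissue. ITGB2 ran the other way, with 214 CPM in P2, the highest of the tissues. RAB3IP also reached 607 CPM in the bladder tissue B10 and 130 CPM in B8, levels above those of TCC0840, so that a high level was not limited to cultured cells.

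**Figure D4:**
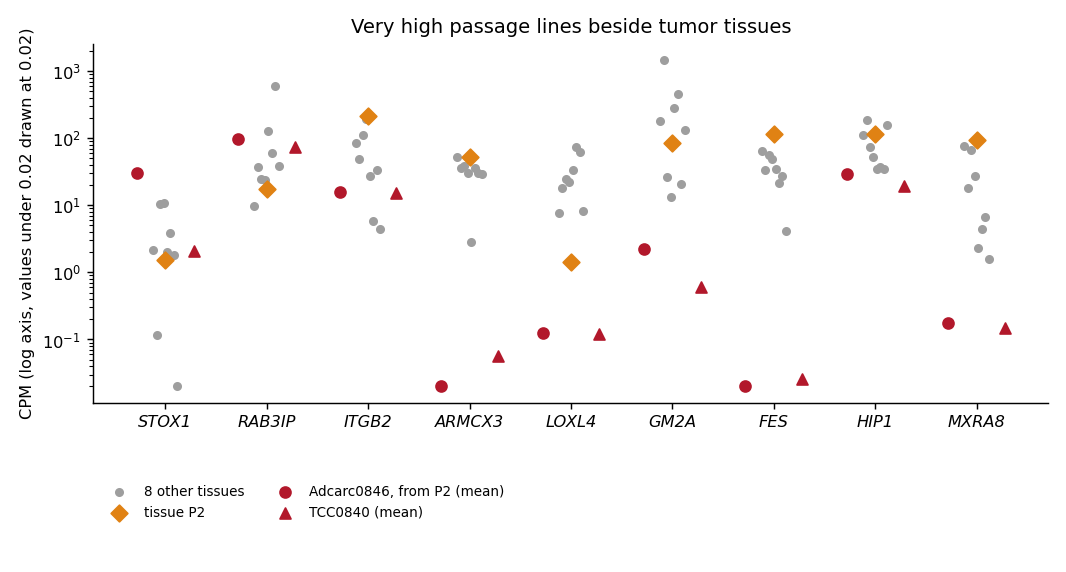
CPM on a log axis for the 9 agreeing genes in the tissue P2 (diamonds), the 8 other tissues (grey points) and the very high lines (red, means of 2 libraries), with values under 0.02 drawn at 0.02. ARMCX3 and FES are at 53.2 and 115 CPM in P2 and at 0 in Adcarc0846, while STOX1 and RAB3IP are higher in Adcarc0846 than in P2.

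The same counts were made for the lower lines that have a tissue of their own. All lower lines were used to choose the genes, so that these shares are set in part by the choice and no contrast with P2 is drawn from them. Of the 65 genes, 16 (24.6%) were at least 2-fold higher in Ln4.2 than in Metadcarc1511.2, 13 (20.0%) in Ln4.3 than in Metadcarc1511.3, 15 (23.1%) in P6.1 than in TCC1509 and 12 (18.5%) in B7 than in TCC1506. The shares of all genes were 22.1%, 20.8%, 23.9% and 13.3%. The 45 higher genes were mostly lower in these lines than in their tissues, with 36 genes (80.0%), 37 (82.2%), 34 (75.6%) and 24 (53.3%) at least 2-fold higher in the tissue. In the reading of the sample numbers given above, all tissues are in the series of the very high lines. Metadcarc1511.2, Metadcarc1511.3 and TCC1509 are in the other series, and TCC1506 has libraries in both. The part of series in these shares was not tested.

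By the order of the sample names, which is an inference and not stated in the labels, replicates 1 and 2 of TCC1506 share the series of the very high lines and its replicate 3 does not. Between them, 4 of the 45 higher genes differed at least 2-fold (1 higher, 2.22%, and 3 lower, 6.67%, in the shared series). Of the 65 lower genes, 9 did (2 higher, 3.08%, and 7 lower, 10.8%). Of all genes, 2.43% were higher and 4.15% lower. Of the 9 genes with a symbol, LOXL4 differed most, and it was 1.51 higher on the log2 scale in the shared series, away from the very high lines. HIP1 was next and differed toward the very high lines (-0.82), and the others differed by less, in either direction. Replicate 1 of TCC1506 is also its library of the lowest passage, where LOXL4 was highest, so that these values do not isolate series. With these 2 libraries as the only lower TCC libraries, 63 genes were higher and 113 lower in both classes.

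In PAC alone, the widest gaps on the higher side were those of IRX2, STOX1, NECTIN3, COL6A1 and TLL2. IRX2, a homeobox transcription factor, had 27.4 to 37.1 CPM in Adcarc0846 and at most 0.0702 CPM in any lower PAC library, a gap of 130-fold. In TCC the groups overlapped for IRX2 (3.99 to 5.96 against 0 to 8.64 CPM). COL6A1, a collagen VI chain, and TLL2, a tolloid-like protease, were low even in Adcarc0846, at 1.43 to 1.91 and 1.17 to 1.76 CPM.

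On the lower side in PAC, the widest gaps were those of COL4A1, A2M, FAM83A, FAM171A1 and ARMCX3. COL4A1, a chain of basement membrane collagen, was at most 0.053 CPM in Adcarc0846 and 45.8 to 183 CPM in the lower PAC libraries, a gap of 288-fold. A2M, a secreted protease inhibitor, was at most 0.053 CPM against 45.0 to 1280 CPM (283-fold). Lower TCC libraries had at most 1.93 CPM of A2M, and TCC0840 had 0 counts. FAM83A, which is known in epidermal growth factor receptor signalling, had 0 counts in Adcarc0846 and 34.1 to 106 CPM in the lower PAC libraries, so that it was at least 434-fold lower than in the mean of the dogs. FAM171A1 was at most 0.143 CPM against 30.8 to 154 CPM in PAC, but overlapped in TCC (37.6 to 43.0 against 18.1 to 88.5 CPM).

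In TCC alone, AVPR2, GABRA3, COBL, DLA-DRA and TMPRSS2 had the widest gaps on the higher side. AVPR2, the vasopressin receptor of the kidney tubule, had 62.7 to 71.3 CPM in TCC0840 and at most 0.119 CPM in the lower TCC libraries (340-fold), but most PAC libraries expressed it too (0.0512 to 146 CPM). COBL, an actin nucleator, had 29.3 to 31.7 CPM against at most 0.491 CPM. TMPRSS2, the androgen regulated serine protease of prostate epithelium, had 123 to 220 CPM in TCC0840 and at most 2.60 CPM in the lower TCC libraries, and 32.0 to 39.4 CPM in Adcarc0846, inside the 2.06 to 104 CPM of lower PAC. All 5 failed the separation rule in PAC. DLA-DRA, a class II antigen presenting molecule, had 10.3 to 29.8 CPM against at most 0.109 CPM, and GABRA3, a GABA receptor subunit, 13.4 to 17.7 CPM against at most 0.0579 CPM.

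On the lower side in TCC stood SULF1, CCDC88A, WNT5B, CCDC80 and NECTIN3. SULF1, an enzyme that removes sulfate from heparan sulfate, had 0 counts in TCC0840 and 124 to 452 CPM in the lower TCC libraries, so that it was at least 1410-fold lower than in the mean of the dogs. CCDC88A (girdin), an actin binding protein, had at most 0.0627 CPM against 21.5 to 403 CPM, and CCDC80, a secreted matrix protein, at most 0.0522 CPM against 18.4 to 94.2 CPM. WNT5B, a secreted ligand of the Wnt family, had at most 0.188 CPM against 21.5 to 93.4 CPM. Both lower TCC lines expressed all of these genes in every library, and TCC0840 was near the floor for each. In PAC all 4 of these failed the separation rule, with 0.318 to 0.333 CPM of CCDC80 in Adcarc0846 just below the lowest lower PAC library (0.528 CPM).

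NECTIN3 and FLNC were separated in both classes but in opposite directions. NECTIN3, an adhesion molecule of cell junctions, had 5.70 and 5.30 CPM in Adcarc0846 and at most 0.0528 CPM in lower PAC, while in TCC0840 it had 0 and 0.209 CPM against 19.8 to 23.3 CPM in lower TCC. FLNC, an actin crosslinking filamin, had 0.0951 and 0 CPM in Adcarc0846 against 1.33 to 638 CPM, and 142 and 102 CPM in TCC0840 against 20.4 to 44.0 CPM. The difference between the classes was not called for either gene (edgeR adjusted p = 0.94 and 0.946).

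Gene groups were described by counts, beside the median log2 fold change of all genes tested, which was -0.08 in PAC and -0.10 in TCC. Setting genes with a group at 0 counts to their bound moved these to -0.06 and -0.08 and changed the median of 1 of the 18 lists (laminins and integrins in TCC, from -0.54 to -0.47). By edgeR, 0 members of any list were called. Lists and members were chosen with earlier results of these data known, so that the shares below are descriptions only.

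Genes of collagens and their processing were separated in both directions. Of 33 tested, 2 were separated and higher (COL5A3, COL6A1) and 2 lower (COL4A1, LOXL4) in PAC, and 3 were higher (FBLN1, LOXL2, MFAP2) and 9 lower (BGN, CCDC80, COL3A1, LOX, LOXL4, PLOD1, SERPINH1, SPARC, SULF1) in TCC. The lower share in TCC was 27.3%, beside 6.65% of all genes with a symbol and 3.75% of all genes. Of all genes, 1.91% were separated and higher and 2.15% lower in PAC, and 4.59% were higher in TCC. The median log2 fold change was -0.65 in PAC and -1.76 in TCC. SERPINH1, the chaperone of procollagen, had 40.7 to 48.3 CPM in TCC0840 and 208 to 286 CPM in the lower TCC libraries, while Adcarc0846 (73.9 to 109 CPM) lay inside the lower PAC range. LOX, which crosslinks collagen, was at most 0.0627 CPM in TCC0840 against 2.74 to 124 CPM, but 38.5 to 73.2 CPM in Adcarc0846.

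Fibroblast markers moved with the TCC comparison. Their sum over 7 genes was 1.82 to 2.66 CPM in TCC0840 and 52.8 to 1330 CPM in the lower TCC libraries, against 3.09 to 3.44 CPM in Adcarc0846 and 0.736 to 3.51 CPM in lower PAC. The genes that carried the sum differed by line: in TCC1509, COL3A1 had 183 to 821 CPM and DCN 239 to 520 CPM with COL1A1 at most 0.297 CPM, and in TCC1506, COL1A1 had 10.1 to 71.3 CPM and COL3A1 39.9 to 92.7 CPM with DCN at most 0.0555 CPM. COL1A2 was at most 0.164 CPM in both. The part of other cells in the matrix counts of TCC was not tested. The study describes TCC1509 as high in VIM and low in epithelial and luminal markers, and TCC1506 as low in KRT8 and KRT18. It found both lines highly invasive. The part of this character of the lower TCC lines in the TCC comparison was not tested either.

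Of 17 laminins and integrins, ITGB3 was separated and higher in PAC (425 to 437 against 55.4 to 143 CPM), and ITGA3, ITGA5 and LAMB2 were separated and lower in TCC. These were 5.88% and 17.6% of the list, beside 1.91% and 3.75% of all genes and 1.35% and 6.65% of those with a symbol. LAMB2, a chain of basement membrane laminin, was nearly separated in PAC as well. It had 22.4 to 26.7 CPM in Adcarc0846 and 49.9 to 175 CPM in lower PAC, and 23.4 to 41.2 CPM in TCC0840 and 85.5 to 191 CPM in lower TCC. All very high libraries were below all lower libraries of either class. The log2 fold change was -1.82 in PAC (SE 0.45) and -1.81 in TCC (0.45), and over both classes it was -1.82 (0.28, edgeR adjusted p = 0.498, DESeq2 4.35e-07).

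Of 30 genes of the primary cilium and its base, 0 were separated in PAC and 8 were separated and lower in TCC (26.7%), namely AHI1, B9D1, CEP19, KIFAP3, MKS1, TCTN1, TMEM107 and TMEM67, and 0 were higher. Among all genes with a symbol 6.65% were lower in TCC, and among all genes 3.75%. This list, too, was drawn up with earlier results known, and its share is no test of the group. The fibroblast markers, whose sums are given above, were also lower in TCC0840, and their part in the cilium counts was not tested. AHI1, B9D1, MKS1, TCTN1, TMEM107 and TMEM67 belong to the transition zone, the gate at the base of the cilium, and KIFAP3 is the adaptor of the kinesin that carries cargo into it. B9D1 had 4.39 to 4.64 CPM in TCC0840 and 12.2 to 24.6 CPM in lower TCC, and in Adcarc0846 its 3.92 to 5.04 CPM were also below all lower PAC libraries (6.63 to 19.8 CPM), short of 2-fold. MKS1 had 0.522 to 0.753 CPM against 3.09 to 7.18 CPM in TCC, and overlapped in PAC. The median log2 fold change of the group was -0.23 in PAC and -1.04 in TCC, and 21 of the 30 genes were negative in both classes and 4 positive in both. Of the 30, 3 had an unadjusted p under 0.05 over both classes by edgeR (B9D1, CEP131, TCTN1), beside 1062 of all 14721 genes, and CEP131 was the one that was higher. RAB3IP, higher in both lines, is not on this list.

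Of 32 growth factor signalling genes, FZD3 and PDGFB were separated and lower in PAC, and in TCC LEF1 was higher and BCR, IGFBP4, IRS1, PIK3R3, SPRY2, VEGFA and WNT5B were lower. The lower shares were 6.25% in PAC and 21.9% in TCC, beside 2.15% and 3.75% of all genes and 2.70% and 6.65% of those with a symbol. VEGFA, the angiogenic growth factor, had 50 to 59.1 CPM in TCC0840 and 401 to 2030 CPM in lower TCC, and overlapped in PAC (81.1 to 206 against 95.6 to 525 CPM). PDGFB, a platelet derived growth factor chain, was 0.318 to 0.856 CPM in Adcarc0846 against 13.1 to 36.6 CPM in lower PAC. FZD3, a Wnt receptor, was low in both very high lines (at most 0.265 and 0.627 CPM), below all lower PAC (1.26 to 2.83 CPM) and lower TCC libraries (0.737 to 1.96 CPM).

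Of 23 epithelial junction genes, EPCAM and TMPRSS2 were separated and higher in TCC, CDH3 lower in TCC and FAM83A lower in PAC, besides NECTIN3. In TCC this gave 8.70% higher and 8.70% lower, beside 4.59% and 3.75% of all genes and 4.05% and 6.65% of those with a symbol. EPCAM, an epithelial adhesion molecule, had 405 to 620 CPM in TCC0840 and 20.2 to 176 CPM in the lower TCC lines. In the PAC lines it overlapped (617 to 759 against 206 to 1400 CPM). Among 9 mesenchymal genes, besides FLNC, TMEM47 was separated and higher and SNAI2 and SPARC lower in TCC. Beside these counts stand the same 4.59% and 3.75% of all genes and 4.05% and 6.65% of those with a symbol. SNAI2, a repressor of epithelial genes, had 9.87 to 13.4 CPM in TCC0840 against 104 to 144 CPM, and 0.713 to 0.901 CPM in Adcarc0846 against 0.859 to 75.9 CPM in lower PAC, where a library of each group overlapped. Its log2 fold change over both classes was -4.06 (SE 0.52, adjusted p by edgeR = 0.441, DESeq2 1.27e-12).

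Of 39 mitosis and centrosome genes, CEP135 was the one separated (lower in TCC, 15 to 16.2 against 34.8 to 67.7 CPM). This was 2.56% of the list, near the 3.75% of all genes. The median log2 fold change was 0.28 in PAC and -0.30 in TCC. Of 8 cell cycle brakes and related regulators, 0 were separated, with RB1 at 51.6 to 52.9 CPM in Adcarc0846 and 46.2 to 58.6 CPM in TCC0840 and a log2 fold change over both classes of 0.02 (SE 0.37, adjusted p by edgeR = 0.99). BMI1, a Polycomb repressor, was slightly below all lower libraries in both classes (log2 fold change -1.21, SE 0.29, and 0.691 as the adjusted p by edgeR). The group of 23 housekeeping, splicing and ribosome genes had 0 separated members and medians of 0.25 and -0.06, and of 26 chromatin genes SETD7 was the one separated (lower in TCC, 8.62 to 11.5 against 26.8 to 43.2 CPM).

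**Figure D5:**
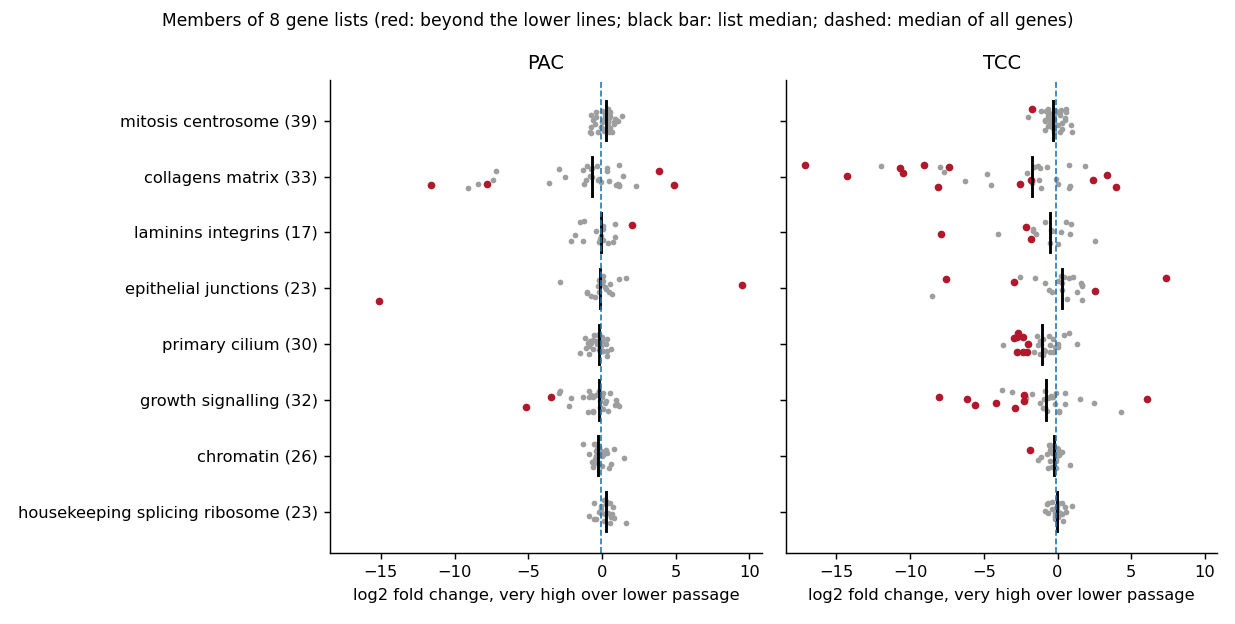
Log2 fold change of very high over lower passage (horizontal axis) for the members of 8 gene lists, in PAC (left) and TCC (right), with the number of genes tested in parentheses. Red points are separated genes, black bars list medians, and the dashed line is the median of all genes (-0.08 and -0.10); in TCC the matrix and cilium lists lie to the left of it, with medians of -1.76 and -1.04.

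Of 12 prostate genes, HOXB13 was separated and lower in PAC, and PSCA and TMPRSS2 were separated and higher in TCC, beside the shares of all genes of 2.15% and 4.59%. HOXB13, the homeobox factor of the prostate, had 0.477 to 1.28 CPM in Adcarc0846 against 10.0 to 58.4 CPM in lower PAC. In TCC0840 it had 11.9 to 14 CPM, also below all lower TCC libraries (16.6 to 23.4 CPM) but short of 2-fold. PSCA, a surface antigen of prostate and urothelium, was separated and higher in TCC0840 (26.6 to 53.1 against at most 0.602 CPM) and low in all PAC libraries. In the antigen presentation group, CD74, the invariant chain of class II molecules, was separated and higher in TCC0840 (251 to 253 against 0.238 to 73.1 CPM) along with DLA-DRA, and Adcarc0846 had 0.713 to 2.33 CPM, inside the lower PAC range.

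Among 11 cytokine and JAK-STAT genes, OSM was found in Adcarc0846 (0.951 to 1.22 CPM) with 0 counts in all lower PAC libraries and in all TCC libraries, and IL11 was separated and lower in TCC (0.0522 to 0.188 against 0.984 to 5.11 CPM). Of 10 drug resistance and redox genes, ABCB8, a mitochondrial ABC transporter, was the one separated (lower in TCC, 22.4 CPM in both libraries against 67.4 to 182 CPM). LAPTM5, a lysosomal protein of leukocytes, was separated and lower in TCC (at most 0.0522 against 0.777 to 5.04 CPM). Of all genes, 1.91% were separated and higher in PAC and 3.75% lower in TCC, and of those with a symbol 1.35% and 6.65%. Of 8 endothelial markers, 2 passed the count filter and 0 were separated. The sum over all 8 overlapped in PAC (24.8 to 35 against 25.8 to 113 CPM), and in TCC it was lower in TCC0840 than in every lower TCC library (4.52 to 5.75 against 9.58 to 33.7 CPM). The part of other cells in these values was not tested.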

How the data were processed

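RNA sequencing libraries of 8 canine cell lines (22 libraries) and 9 tissues were used. Per the submitters' processing notes and the methods, the authors used Trimmomatic 0.36 for trimming, STAR 2.5.3 for alignment (CanFam3.1) and RSEM 1.3.0 for counting. The authors deposited expected counts per gene and lane, not normalized, with effective lengths, which were not used. No source used here states that counting used strand, so overlapping genes may share counts.

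Lanes of a library were summed, and libraries were summed by dog and rounded for testing. Lanes 2 to 4 of an Adcarc0846 library carry labels that count upward and were assigned by title. The Dobermann's 3 lines counted as 1 dog. Genes with at least 10 counts in all dogs of at least 1 class and passage group were tested (14721 of 32183) with edgeR 4.0.16 (TMM, quasi-likelihood test, 4 group means, or class and passage for both classes) in R 4.3.3. DESeq2 1.42.0 was the alternative. Nothing says that libraries of a line came from separate thawings, so their spread may be technical. P-values measure the spread between dogs. In the fit of 4 group means, that spread comes only from the lower passage dogs of both classes. Each class has 1 very high dog, which is assumed to vary like the lower passage dogs.

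Named genes were, among those with a symbol, the separated genes of both classes (up to 12 in each direction), the 5 widest gaps in each direction per class, and separated members of 18 gene lists. Members and lists were chosen with earlier results of these data known. The sample number series was read from titles. Symbols of 1120 identifiers came from pairings that the study gives, mostly in its supplement. The reference table (UU_Cfam_GSD_1.0) held none of the identifiers, and no coordinates or sequences are given. The self-test simulated 14721 genes, of which 200 changed 4-fold. Tissues were scaled with the lines by TMM over 31 libraries. Floors cover counting error only. Python 3.11.15 with pandas 2.3.3, numpy 2.4.6 and matplotlib 3.10.9 made tables and figures.

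Replicate numbers did not pair samples: deviations of same-numbered libraries had correlations between -0.244 and 0.124 over 24 pairs. Alternatives were the test, normalization, filter, threshold, unit, floor, fold, series, replicates and dogs left out, and each lower line left out, the last chosen after seeing the data.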

Additional observations from a re-analysis of the deposited data

Results flagged for a closer look

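Among 27 named genes, 7 had 1 of the 4 lower passage dogs far from the other 3 by Dixon's criterion. In unselected values, chance meets it in about 1 of 20 groups. These genes were chosen by their levels in the same libraries, some of them near the floor. That rate therefore does not apply, and the count is a description only. Mean log2 CPM of the outlying dog, the highest in each case, was -0.67 for STOX1, -0.31 for ITGB2, 2.56 for MXRA8 and 5.97 for AVPR2 in the Dobermann. It was 1.45 for GABRA3 and -0.36 for DLA-DRA in the dog of Adcarc1508, and 2.74 for IRX2 in the dog of TCC1506. For STOX1, ITGB2 and MXRA8 the lower lines of different dogs therefore do not form 1 level. In the case of ITGB2, the higher level of Adcarc1511.1 set the narrow gap in PAC.

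FLNC and NECTIN3 were separated in opposite directions in both classes. The PAC gap was -3.07 for FLNC and 4.66 for NECTIN3 on the log2 scale, and the TCC gap was 1.21 and -6.57. The difference was tested as an interaction and was not called (edgeR adjusted p = 0.946 and 0.94).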

How the results depend on the processing

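The 0 calls by edgeR in PAC, TCC, both classes and their difference stayed at 0 with DESeq2 size factors, no count filter, an adjusted p of at most 0.05, 8 lines as units, Adcarc1511.1 alone for its dog, and every dog or replicate left out (0 to 0). PAC, TCC and the difference could not be fitted without either very high dog. DESeq2's test called 229, 385, 291 and 219 genes. With each library as its own sample, edgeR called 1843, 3091, 2004 and 2566, and with the replicate block 2127, 3331, 2166 and 2939; both treat libraries of a line as independent dogs.

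Separated genes numbered 598 in PAC and 1227 in TCC, and 45 higher, 65 lower and 41 opposite in both. At 4-fold these were 302, 536, 16, 26 and 15, and with any non-overlap 3011, 5017, 363, 364 and 403. A floor of 10 counts left 42 lower. Without the metastasis lines 67 were opposite. With the TCC1506 libraries of the very high lines' series only, TCC had 3037, both lower 113 and opposite 109, which 2 lower libraries in place of 6 favor. No PAC value exists for that setting. With 1 replicate or 1 lower line left out, the counts ran from 655 to 994 in PAC, 1379 to 3344 in TCC, 48 to 102 higher, 69 to 118 lower and 46 to 103 opposite. The counts moved by over 1.5 times without replicate 1, replicate 2 (TCC and opposite), Adcarc1508 (994 in PAC; 77 higher in both), TCC1506 (3344) or TCC1509 (2664). The ratio of distances was 0.865 with the 500 most variable genes, and 0.881 to 0.944 with lines left out.

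Of the 9 agreeing genes, log2 fold changes kept their direction under all alternatives run, and 8 were called by DESeq2 and 9 with libraries as samples.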
